A study of Mus musculus with 3 samples.

Results

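The major histocompatibility locus of the mouse, called H2, was taken as chromosome 17 from position 33900001 to 37300000 (mouse genome build mm9, 3.4 Mb), and its H3K4me3 peaks were compared between 2 hippocampal libraries. Members were chosen by the position of called peaks: a peak belonged to the locus when at least 1 bp of it lay within these limits. By that rule 103 of the 18515 peaks of the wild-type (WT) library and 118 of the 19631 peaks of the transgenic (HD) library were members, and together they formed 117 regions. The HD library came from N171-82Q mice, which carry an N-terminal fragment of mutant human huntingtin driven by the mouse prion protein promoter and serve as a model of Huntington's disease. The WT library came from their wild-type littermates. Both groups were adult males of a C57/DBA F1 hybrid strain, and no other treatment is named in the labels. Each library was made from whole hippocampi pooled from 3 mice and precipitated with an antibody against H3K4me3. It thus averages over all cell types of the tissue, and each genotype has 1 library, so every difference given here is between these 2 libraries and has no replicate check.

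H3K4me3 is trimethylation of histone H3 at lysine 4, a mark that lies over the start sites of active and poised genes. The H2 locus is one of the most gene-dense and most polymorphic parts of the mouse genome. Its class I genes encode the surface molecules that show peptides to cytotoxic T cells, and its class II genes encode those that show peptides to helper T cells. Beside the class II genes lie the class III genes, which include complement components, the cytokine gene Tnf and heat shock genes. In the brain, class II genes are known mainly from microglia, and some class I genes are also transcribed in neurons. In the RefSeq gene table (assembly GRCm38.p6) the listed genes, leaving aside H2-Q8, H2-Q9 and H2-T18, which the table places apart from their families, run from Tapbp and H2-K1 to the class II genes with the antigen processing genes Tap1, Tap2, Psmb8 and Psmb9 among them. Next come Notch4, the complement genes C4b, C4a, Cfb and C2, then Tnf, H2-D1, and the H2-Q, H2-T and H2-M families of further class I genes. That table is of another build than the peaks, so which gene a peak belongs to was not analysed here, and peaks are given by their mm9 positions. For the same reason the labelled tissue was not checked against marker genes. F1 hybrids carry a different H2 haplotype from each parent, and the class I families hold near-identical gene copies. The sources used here do not say how reads matching several copies were placed.

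The authors' lists hold a score for each peak, on the scale of its own list, which runs from 50.01 to 3233.06 in both. The files do not name its unit. The number of reads behind each peak and the depth of the libraries are unknown, so scores served mainly to describe and rank peaks within a list. The same score limits were applied to both lists, where they may not mean the same strength. Ranks of the scores were also correlated between the lists. Intervals are exact (Clopper-Pearson) 95% binomial intervals for shares and 95% order-statistic intervals for medians, and they cover counting error over peaks, not variation between mice.

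The locus was crowded with H3K4me3 in both libraries. It held 30.3 peaks per Mb in WT and 34.7 in HD, against 8.18 and 8.74 per Mb in the rest of chromosome 17. In the 2 Mb on either side of it the rate was 9.75 per Mb in WT and 11.5 in HD. Peaks covered 7.67% of the locus in WT and 7.92% in HD, and 2.02% and 1.93% of the rest of the chromosome. The median gap between neighbouring peaks was 12.1 kb in WT and 11.4 kb in HD, against 40.3 and 36.0 kb elsewhere on chromosome 17. These rates follow from where the limits were drawn and describe the locus without a test.

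Single peaks of the locus were of ordinary size and score. The median width was 2324 bp in WT (2065 to 2559 bp) and 1967 bp in HD (1794 to 2271 bp). In the rest of chromosome 17 the medians were 2262 bp in WT and 2039 bp in HD, inside those intervals. Peaks at least 4 kb wide numbered 11 in WT, 10.7% of the locus (5.45 to 18.3%), and 8 in HD, 6.78% (2.97 to 12.9%). Elsewhere on the chromosome these shares were 9.09% and 6.96%. The median score of the locus, 895 in WT and 1112 in HD, stood at percentile 51.9 of the WT list and 49.4 of the HD list. Weak peaks with a score below 100 made up 4.85% of the WT peaks of the locus and 10.2% of its HD peaks. In the rest of chromosome 17 they made up 13.5% and 13.3%.

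Every WT peak of the locus had an HD counterpart, meaning an HD peak overlapping it by at least 1 bp, while 14 HD peaks had no WT counterpart. The count of 0 among 103 WT peaks allows a share without a counterpart of up to 2.91%, taken as 3 counts of the total, or up to 3.52% by the exact interval. Over the whole genome 5.50% of WT peaks had none, and in the rest of chromosome 17 this was 4.82%, 35 of 726 peaks. The 14 HD peaks were 11.9% of the HD peaks of the locus (6.64 to 19.1%). Over the whole genome 9.30% of HD peaks had no counterpart, a value inside that interval, and in the rest of chromosome 17 the share was 9.92%, 77 of 776 peaks. The locus thus held 13.2% of the HD peaks of chromosome 17 and 15.4% of its 91 HD-only peaks. In the 2 Mb on either side, no counterpart was found for 1 of 39 WT peaks, 2.56%, and for 6 of 46 HD peaks, 13.0% (4.94 to 26.3%). The HD-only share of the locus was thus above that of the rest of the chromosome and below that of its flanks.

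**Figure D1:**
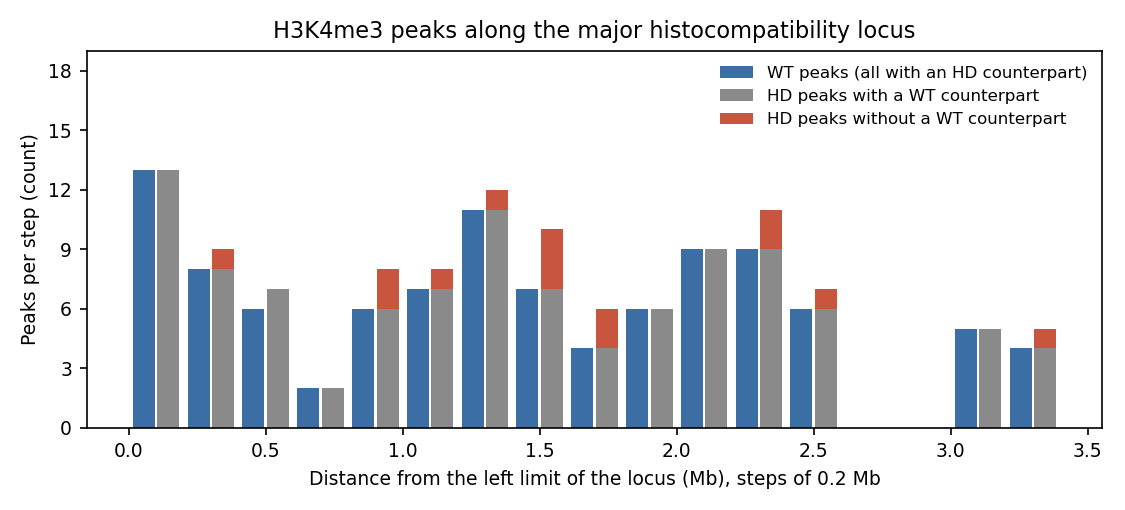
Peaks per 0.2 Mb step (bars, counts) against the distance from the left limit of the locus (Mb), for the WT library and for HD peaks with and without a WT counterpart. The WT and shared HD bars have equal height in 14 of the 15 occupied steps, the HD-only peaks are most frequent in the step that begins at 1.4 Mb, with 3, and 2 steps are empty in both libraries.

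Along the locus, in steps of 0.2 Mb, peaks were dense at the left and in the middle and absent from a stretch towards the right. The first step, up to 34.1 Mb, held the most, 13 WT and 13 HD peaks, all shared. From 34.1 to 34.3 Mb there were 8 WT and 9 HD peaks, and from 34.3 to 34.5 Mb 6 and 7. From 34.5 to 34.7 Mb each library had 2 peaks, the fewest of any occupied step, with widths of 1447 and 1511 bp in WT and 1233 and 1507 bp in HD. To the right of it there were 6 WT and 8 HD peaks from 34.7 to 34.9 Mb and 7 and 8 from 34.9 to 35.1 Mb. The step from 35.1 to 35.3 Mb was the second densest, with 11 WT and 12 HD peaks.

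From 35.3 to 35.5 Mb the WT library had 7 peaks and the HD library 10, the largest difference in count of any step. From 35.5 to 35.7 Mb the counts were 4 and 6. Both libraries had 6 peaks from 35.7 to 35.9 Mb and 9 from 35.9 to 36.1 Mb. From 36.1 to 36.3 Mb there were 9 WT and 11 HD peaks, and from 36.3 to 36.5 Mb 6 and 7. Neither library had a peak in the steps from 36.5 to 36.9 Mb. This empty stretch ran from 36453204 to 36972740 in WT, 519.5 kb, and from 36453141 to 36973013 in HD, 519.9 kb. The last 2 steps held 5 peaks in each library from 36.9 to 37.1 Mb and 4 WT and 5 HD peaks from 37.1 Mb to the right limit. Steps of the same size in the rest of chromosome 17 had a median of 1 peak in each library, and 189 of 445 had no WT peak. There, 4 steps held 10 or more WT peaks, against 2 of the 17 steps of the locus.

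At the limits, the first peaks inside the locus began 17.4 kb from the left limit in both libraries; the WT peak spanned 1912 bp and the HD peak 2074 bp. The nearest peaks outside on that side ended 2.01 kb before it in WT and 1.99 kb before it in HD, with widths of 2078 and 2385 bp and scores of 916 and 1552. At the right end, the last peaks inside ended 109.1 kb before the limit in WT and 108.6 kb before it in HD. The first peaks beyond began 33.7 and 33.5 kb after it, and were 1207 and 1362 bp wide. No peak lay across either limit.

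The strongest HD-only peak lay at 35575455 to 35576720. It spanned 1266 bp and scored 277.66, higher than 29.1% of the HD list. Among the 1825 HD-only peaks of the genome it ranked 4 by score, and among those of chromosome 17 it ranked 2. The nearest WT peak was 13.1 kb away and had a score of 107.31. Of the 1053 other HD peaks with a score within 1.25-fold, 9 had no counterpart, 0.855%, and 22.1% were narrower. The choice of this peak rests on its score, so these values describe it and test nothing.

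The second, at 34117819 to 34119269, was 1451 bp wide with a score of 191.63. It lay 1.69 kb to the right of a WT peak with a score of 294.22, the closest that any of the 14 came to a WT peak. The third, at 35531027 to 35531972, was 946 bp wide with a score of 159.84, and 13.4 kb separated it from the nearest WT peak. The fourth, at 36247603 to 36248886, had a score of 100.33, and the fifth, at 35457123 to 35458284, a score of 97.08. The fifth was the farthest from any WT peak, at 55.7 kb. The sixth, at 35214217 to 35215406, was 1190 bp wide with a score of 89.45.

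The other 8 had scores from 50.35 to 87.83. As a group the 14 had a median score of 86.0 and a median width of 1089 bp, with widths of 678 to 1849 bp, while HD-only peaks of the whole genome had medians of 69.4 and 1035 bp. In 12 of the 14 the nearest WT peak was over 5 kb away, and in all 14 over 1 kb. Such distances are not given for HD-only peaks elsewhere, so this is not shown to be particular to the locus. Most of the 14 were weak, and 10 of them scored below 100. With a minimum score of 100 the count of HD-only peaks was 4 when WT counterparts of any score were allowed, and 7 when the minimum held in both lists. With counterparts of any score, 375 of the 1825 HD-only peaks of the genome and 25 of the 91 of chromosome 17 reached that score.

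**Figure D2:**
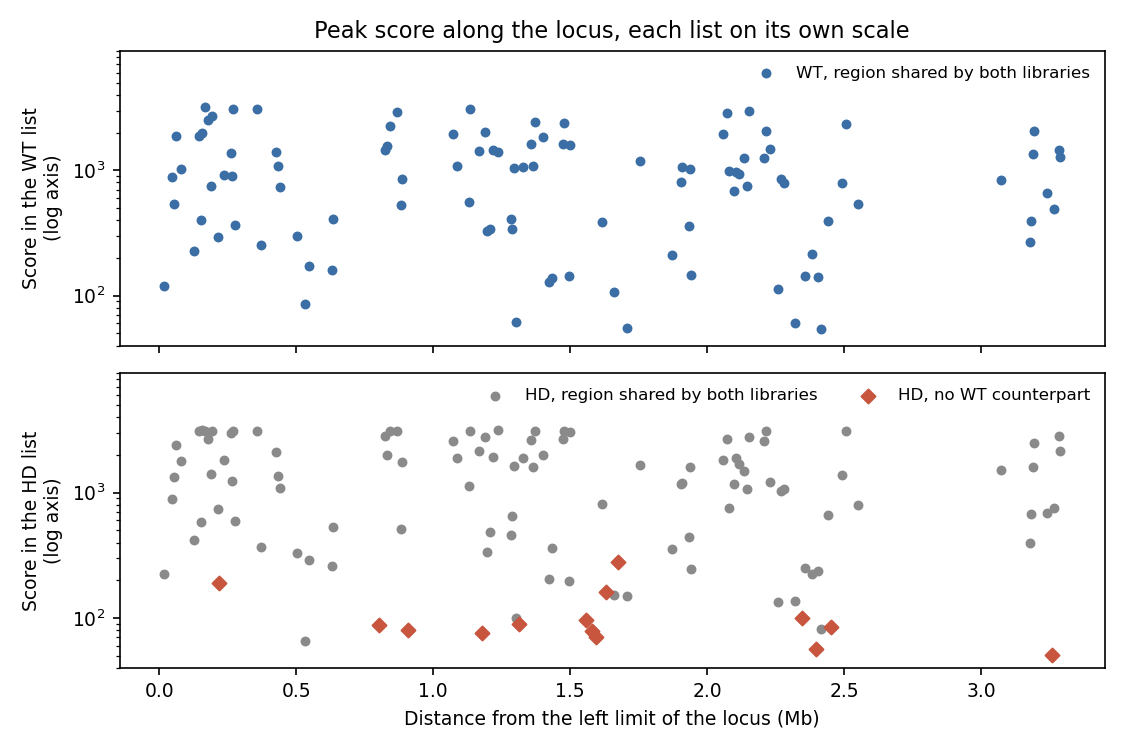
Score of each region (log axis, each list on its own scale) against the distance of its centre from the left limit of the locus (Mb), for WT (upper panel) and HD (lower panel). The 14 HD peaks without a WT counterpart, drawn as diamonds, score between 50.35 and 277.66, and 5 of them lie close together between 1.56 and 1.68 Mb.

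The HD-only peaks were spread over much of the locus. Of the 17 steps, 8 held none, 5 held 1, 3 held 2, and the step from 35.3 to 35.5 Mb held 3. Singled out after its values were seen, a stretch of 119.6 kb from 35457123 to 35576720 carried 5 of the 14, or 35.7%, on 3.52% of the length of the locus. It held 7 HD peaks and 2 WT peaks. From left to right its HD-only peaks lay at 35457123 to 35458284, at 35479201 to 35480293, at 35495841 to 35496760, at 35531027 to 35531972 and at 35575455 to 35576720. Their scores in that order were 97.08, 79.32, 70.23, 159.84 and 277.66. The stretch thus includes the HD-only peaks ranked 1 and 3 by score in the locus.

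Both WT peaks of this stretch overlapped HD peaks that covered more. At 35515949 to 35517778 the WT peak was 1712 bp wide with a score of 387.89, and the HD peak was 1802 bp wide with a score of 815.14. At 35561493 to 35562761 the WT peak was 786 bp wide with a score of 107.31, and the HD peak was 1269 bp wide with a score of 153.80. The nearest shared region to the left of the stretch, at 35399040 to 35401468, was a strong one whose WT peak ended 55.7 kb away. Its WT peak covered 2429 bp and its HD peak 2135 bp. To the right of the stretch were weak shared peaks at 35606667 to 35607983. They covered 1163 bp in WT, at a score of 54.82, and 1182 bp in HD, at a score of 149.84. Outside the stretch 9 of 111 HD peaks of the locus had no counterpart, a share that had to be lower because the stretch was drawn around such peaks.

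Elsewhere in the genome, 1 other stretch of at most this length held at least 5 HD-only peaks. It lay on chromosome 18 and held 7. No stretch of this length held 5 WT-only peaks. The length was drawn around the peaks of the locus, so this count is a description.

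Most of the HD-only peaks were weak, as they were elsewhere in the genome. Among HD peaks with a score below 100, 10 of 12 in the locus had no WT counterpart, 83.3% (51.6 to 97.9%). In the rest of chromosome 17 this share was 54.4% (44.3 to 64.2%), and on the other autosomes 50.2% (48.3 to 52.1%). Between 100 and 200, 3 of 9 HD peaks of the locus had none, 33.3% (7.49 to 70.1%), against 21.6% (13.5 to 31.6%) in the rest of the chromosome. At a score of 200 or more, 1 of 97 had none in the locus, and 2 of 585 in the rest of chromosome 17. The intervals of the locus overlapped those of the rest of the chromosome in every class.

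In the WT list all 5 peaks of the locus with a score below 100 and all 11 from 100 to 200 had an HD counterpart. In the rest of chromosome 17, 30 of 98 WT peaks below 100 had none, 30.6% (21.7 to 40.7%), and 5 of 70 from 100 to 200. With 5 and 11 peaks, the locus allows shares of up to 52.2% and 28.5% by the exact interval, so a difference from the rest of the chromosome was not detectable at these numbers.

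**Figure D3:**
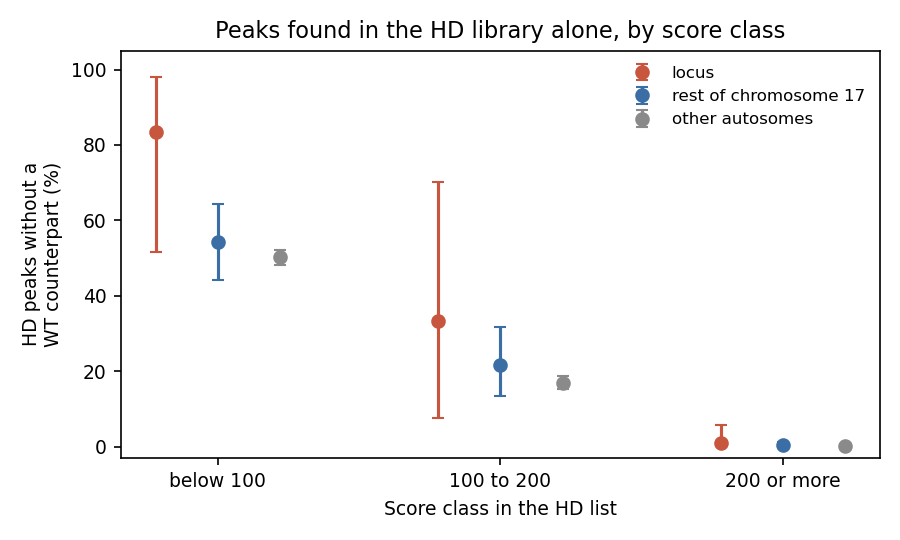
Share of HD peaks without a WT counterpart (%) by score class in the HD list, for the locus, the rest of chromosome 17 and the other autosomes; bars are exact 95% binomial intervals over peaks. The share is highest below a score of 100 (83.3%, 54.4% and 50.2%) and close to 0 at 200 or more, and the bars of the locus overlap those of the rest of chromosome 17.

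In regions marked in both libraries, the HD peaks of the locus were slightly shorter on balance, and regions with large differences were rare. Of the 117 regions 103 were shared, and all but 1 of these were single peaks in both lists. The covered length in HD relative to WT had a median log2 ratio of -0.055 (-0.087 to -0.004), with quartiles of -0.15 and 0.07. In the rest of chromosome 17 it was -0.093 (-0.115 to -0.078), and the intervals overlapped. In the 2 Mb on either side it was -0.056 (-0.148 to 0.102), close to that of the locus. HD covered less in 62 of the 103 regions, 60.2% (50.1 to 69.7%), and more in 41. Over the whole genome HD covered less in 69.0% of shared regions, and in the rest of chromosome 17 in 70.8% (67.2 to 74.2%). In the 2 Mb on either side HD covered less in 23 of 38 shared regions, 60.5% (43.4 to 76.0%), near the share of the locus. Summed over the shared regions of the locus, WT peaks covered 260.6 kb and HD peaks 253.5 kb.

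Lengths ran in parallel in the libraries. Across the 103 regions, which share their genomic sites and the peak caller, the covered lengths had a Spearman correlation of 0.94 and the scores one of 0.96. In the 102 regions with 1 peak of each, the median inward offset of the HD peak was 45.5 bp at its left end and 42.5 bp at its right end. Over the whole genome these offsets were 62 and 64 bp. The HD peak lay wholly within the WT peak in 42 regions, 41.2%, and the WT peak wholly within the HD peak in 18, 17.6%. Over the whole genome these shares were 42.7% and 13.1%, and in the rest of chromosome 17 they were 45.8% and 14.1%.

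**Figure D4:**
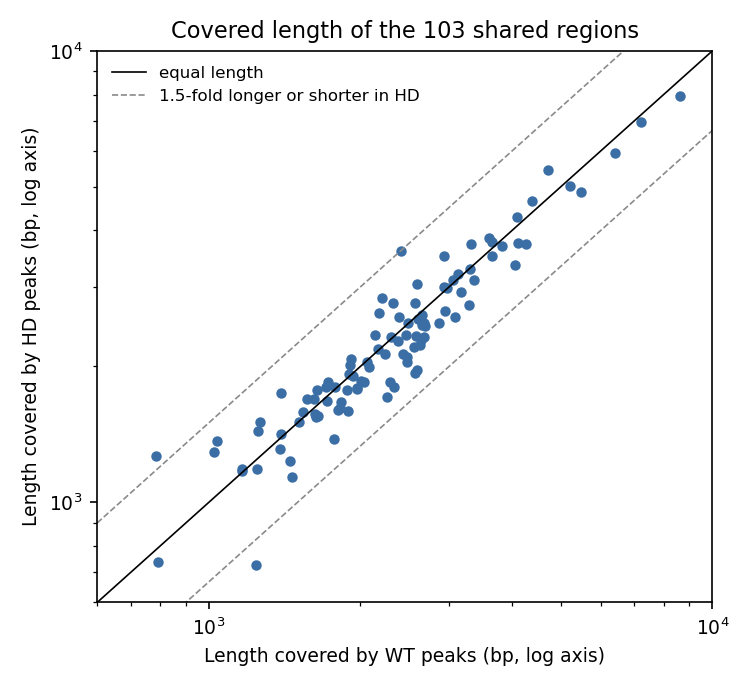
Length covered by HD peaks (bp, log axis) against that covered by WT peaks (bp, log axis) in each of the 103 shared regions; the solid line marks equal length and the dashed lines a 1.5-fold difference. Points follow the solid line, 62 below it and 41 above it, and 1 lies beyond each dashed line.

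Beyond a 1.5-fold difference, 1 shared region of the locus was shorter in HD and 1 longer. Over the whole genome 2.79% of shared regions were over 1.5-fold shorter in HD and 0.749% over 1.5-fold longer, so 1 of 103 in either direction was near the background. The longer one was the region at 35561493 to 35562761, described above, with a log2 ratio of 0.69. The shorter one lay at 34432691 to 34433931 (log2 ratio -0.77). Its WT peak spanned 1241 bp and scored 85.34, and its HD peak spanned 728 bp and scored 65.76. Its mean length was under the 1 kb set for named gains and losses, so it is named here after its values were seen.

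Among regions averaging 1 kb or more over the libraries, the next gain in HD lay at 34175174 to 34178770, where 2411 bp were covered by the WT peak and 3597 bp by the HD peak (log2 ratio 0.58). Nearly all of the added length was on the right, where the HD peak ended 1031 bp beyond the WT peak, while on the left it began 155 bp earlier. The region at 36304298 to 36305663 had a WT length of 1037 bp and an HD length of 1366 bp (0.40). At 36032339 to 36035251 the lengths were 2208 and 2838 bp (0.36), and here the HD peak began 705 bp to the left of the WT peak. At 35201567 to 35202859 they were 1024 and 1293 bp (0.34). In 3 of these 5 gains the WT score was below 200, as it was in 16 of the 103 shared regions of the locus.

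Among regions averaging 1 kb or more, a limit that leaves out the loss of -0.77 given above, the 5 largest losses had log2 ratios from -0.41 to -0.36. At 35262495 to 35265064 the WT peak covered 2570 bp and the HD peak 1938 bp (log2 ratio -0.41), with 525 bp of the difference on the right. At 34399878 to 34402470 the lengths were 2593 and 1964 bp (-0.40). This was the sole shared region of the locus with unequal numbers of peaks, 1 in WT and 2 in HD, so part of the difference is the gap between the HD peaks. At 36015983 to 36018239 the lengths were 2257 and 1711 bp (-0.40), with both HD edges inward, by 299 and 247 bp. At 35977496 to 35979825 they were 2330 and 1804 bp (-0.37), and at 35809599 to 35811058 they were 1460 and 1135 bp (-0.36). The WT scores of these 5 regions ran from 298.86 to 1073.44, and those of the 5 gains from 61.61 to 1264.67. The loss of -0.77 that the limit leaves out had a WT score of 85.34, so the losses also reached weak peaks.

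The direction of the length difference varied along the locus. Of the 15 steps with shared regions, 10 had a median log2 ratio below 0 and 5 above. From 35.7 to 35.9 Mb all 6 regions were shorter in HD, with log2 ratios from -0.36 to -0.06. From 34.5 to 34.7 Mb both regions were shorter. From 35.5 to 35.7 Mb, the step with the right part of the HD-only run, all 4 shared regions were longer in HD, with log2 ratios from 0.02 to 0.69. Steps hold 2 to 13 shared regions, so a step in which all regions differ in the same direction rests on few of them.

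The shared regions were also divided at a WT score of 200, a bound chosen with the values known. Of the 16 shared regions with a WT score below 200, 5 were shorter in HD and 11 longer, with a median log2 ratio of 0.034 (-0.034 to 0.256). In the rest of chromosome 17, 83 of 130 such regions were shorter and 46 longer, with a median of -0.100 (-0.187 to -0.035). Of the 87 regions of the locus with a WT score of 200 or more, 57 were shorter and 30 longer, with a median of -0.07 (-0.12 to -0.03). Elsewhere on the chromosome the median of that class was -0.09 (-0.11 to -0.08). Below 200 the lower end of the interval of the locus thus lay just above the upper end of that elsewhere on the chromosome. At 200 or more the intervals overlapped. They also overlapped from 100 to 200 alone, at -0.034 to 0.398 in the locus and -0.236 to -0.030 elsewhere on the chromosome. Below 100 the locus had 5 regions, 2 shorter and 3 longer in HD, too few for an interval. These intervals cover counting error over regions, and with 1 library per genotype none of these differences was tested.

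The widest H3K4me3 regions of the locus were marked in both libraries as single peaks. The widest lay at 34253016 to 34261628, and its lengths were 8613 bp (WT) and 7952 bp (HD). The HD peak was set in by 311 bp at the left end and by 350 bp at the right. The next, at 34762682 to 34769898, covered 7196 bp in WT and 6961 bp in HD. At 36001905 to 36008439 the lengths were 6416 and 5937 bp, and at 36052218 to 36057698 they were 5481 and 4869 bp. At 34739336 to 34744553 WT covered 5218 bp and HD 5016 bp, and this region lay in the same step as the second widest. The sixth, at 37185924 to 37191357, was the exception in direction, with a WT peak of 4715 bp and an HD peak of 5434 bp, longer on both sides by 217 and 502 bp. The other 5 were shorter in HD by log2 ratios of -0.17 to -0.05.

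In the WT list the highest scores of the locus belonged to the regions at 34065062 to 34068873, with a score of 3176.69, and at 35034237 to 35037592, with 3107.84, followed by 2 peaks with 3100, the wider of them in the widest region. The value 3100 is shared by many peaks of both lists, in the locus by 2 WT and 12 HD peaks, so ranks near it carry little information. In the HD list the highest scores were 3162.36 at 35136758 to 35139799 and 3154.37 at 34055738 to 34058406. The 12 HD peaks with 3100 came next and cannot be ranked by score; the widest region is among them. The region with the HD score of 3162.36 was longer in HD, at 3042 bp against 2591 bp (log2 ratio 0.23). That with 3154.37 was shorter in HD, at 2500 bp against 2669 bp (-0.09).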

How the data were processed

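The authors deposited 1 peak list per H3K4me3 library; the input library's data were not used here. Peak names in the deposited files carry the name MACS, without version or settings. Per the submitters' processing notes, the tools were SAMtools, BWA 0.5.9 and CASAVA 1.8.2, with builds NCBIM37 and mm9. The unit of the deposited score and the depth of the libraries are unknown, so scores were ranked within a list. Between the lists these ranks were correlated, and the same score limits were applied to both. Groups came from the genotype labels.

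WT and HD peaks that overlapped were joined to regions, whose covered lengths gave a log2 ratio, HD relative to WT (Python 3.11.15, numpy 2.4.6, scipy 1.17.1). Step counts used peak midpoints. Rates per Mb of the rest of chromosome 17 used the span from its first to its last peak. The code was tested on simulated lists. With 1 library per genotype no p-value was computed.

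The locus, regions to name and alternatives were chosen with earlier results of these data known. Named were the 6 highest scoring HD-only and WT-only peaks, the 6 longest shared regions, the 5 largest gains and 5 largest losses averaging 1 kb or more, regions with unequal peak numbers, the 3 highest scores per list, peaks at the limits, and the fullest and emptiest steps. Other settings tried were stricter and looser overlap, scores of 100 or more, lists of equal size, merging within 1 kb, other limits and other backgrounds. The planned list of H2 genes by symbol was used for gene order alone.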

Additional observations from a re-analysis of the deposited data

How the results depend on the processing

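Of 120 values under other settings, 110 moved by less than the counting error (for counts and rates, by less than 1.5 times) and 10 by more. Some of the 110 could not move. No peak crossed a limit, so keeping peaks wholly inside changed nothing, and lists of equal size left the WT list whole. Shares with a counterpart and counts without one also state the same result. The 110 are therefore not a measure of stability. Keeping peaks that scored 100 or more in both lists, 7 HD peaks of the locus had no counterpart, the share with one was 93.4%, no shared region was over 1.5-fold shorter (count 0), and the median WT score stood at percentile 45.9. With this minimum in the HD list alone, 4 HD peaks had none and the share with one was 96.2%. Shares under these score limits were computed for the locus alone, without a background. A reciprocal overlap of 50% left 1 WT peak without a counterpart. The share of WT peaks of the locus with an HD counterpart was 2.56 percentage points above that of the 2 Mb on either side, and 4.82 above that of the rest of chromosome 17. The HD median width was 182 bp above that of the flanks, while it differed by -72 bp from the rest of the chromosome. The share of regions shorter in HD differed by -0.33 percentage points from the flanks and by -10.6 from the rest of the chromosome. Some differences changed sign against the flanks and still counted among the 110. The share of HD peaks with a WT counterpart differed by 1.18 percentage points from the flanks and by -1.94 from the rest of the chromosome. The percentile of the median WT score differed by -0.67 from the flanks and by 1.51 from the rest of the chromosome. For the median HD score these differences were 1.97 and -1.15. The count of WT peaks without a counterpart stayed at 0 under the other 9 settings run for it. Under several of these it could not rise. These were a counterpart within 1 kb, merging within 1 kb and limits moved inward. Peaks wholly inside the limits and a minimum score in the WT list alone were further such settings. Their counts of 0 add nothing to the main result. No paired analysis was possible because there is a single library per genotype, and for the same reason none could be left out. Depth is unknown, which limits what a missing weak peak shows.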
